A study of Rattus norvegicus with 18 samples.

Results

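The CpGs described here lie between bases 107749411 and 107969730 of chromosome 14 of rn6, a stretch of 220320 bases that takes its name from the imprinted gene Zrsr1 and from Commd1, the gene around it. CpGs covered by at least 10 reads per cytosine, with both strands merged, were taken where at least 4 of the 6 striata of a treatment had a value, which gave 228 CpGs of 1051003 in the whole series. They were grouped by their mean methylation in the untreated striata as under 20%, from 20 to 80% and over 80%, so that these levels are a description. The stretch itself was chosen with the comparison of L-DOPA + R and UNT in view, and its first and last CpG are both differentially methylated sites (DMS) of that comparison.

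In imprinting, a control region is methylated on the copy from one parent and unmethylated on the copy from the other, and the genes it controls are expressed mainly from a single copy. A CpG at such a place is therefore methylated on about every other DNA molecule, in contrast to most CpGs, which are either nearly free of methylation or almost fully methylated. RRBS reads do not tell the parental copies apart unless they differ in sequence, and levels alone are given here. Zrsr1 is a retrogene with a role in RNA splicing that lies in an intron of Commd1 and is expressed from the paternal copy in the mouse. Commd1 encodes a COMM domain protein with roles in copper homeostasis and in the control of NF-kB.

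The striata came from juvenile male Wistar rats with a unilateral 6-OHDA lesion of the medial forebrain bundle, made on postnatal day 21, which destroys the dopaminergic input of the striatum on that side. All 9 rats carried the lesion, and the contralateral striatum was the control. UNT rats received saline, L-DOPA rats received L-DOPA with benserazide, and L-DOPA + R rats received these and Riluzole, from postnatal day 35 to 49 and once more on postnatal day 53, when both striata were collected. Each group had 3 rats and 6 striata, each measured by reduced representation bisulfite sequencing (RRBS), in which MspI fragments are read from their ends and the percentage of reads that keep a C gives the methylation of a cytosine. Striatal tissue holds many cell types, so that a share of methylated molecules and a share of cells cannot be told apart.

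UNT striata were sequenced more deeply, with 30288745 to 49113957 calls per striatum, compared with 18471279 to 30764504 with L-DOPA and 19383285 to 25846139 with L-DOPA + R. At the CpGs of the stretch, the median number of reads went from 23 to 35.5 per striatum in UNT, from 17 to 25 with L-DOPA and from 18 to 22 with L-DOPA + R. At least 4 of 6 striata had a value at 222 CpGs in UNT, at 147 with L-DOPA and at 156 with L-DOPA + R.

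Among the 222 CpGs with a UNT mean, 96 were under 20%, 43 were from 20 to 80% and 83 were over 80%. These are shares of 43.2, 19.4 and 37.4%, beside 43.5, 20.3 and 36.2% of the 1017767 CpGs that could be grouped in the whole series. The low CpGs had a mean of 1.58 ± 0.154% in UNT (SD, n = 3 rats), 1.52 ± 0.221% with L-DOPA and 1.90 ± 0.364% with L-DOPA + R. The intermediate CpGs had 57.7 ± 2.52% in UNT, 55.4 ± 1.72% with L-DOPA and 53.4 ± 3.60% with L-DOPA + R, and the high CpGs 92.7 ± 0.240%, 90.3 ± 0.595% and 90.6 ± 1.01%. Since fewer CpGs were kept in the treated groups, these means do not cover the same CpGs. Of the CpGs kept in both groups, 135 of 141 stayed in their class with L-DOPA and 145 of 156 with L-DOPA + R. The other 6 of the 228 CpGs had a value in fewer than 4 UNT striata and were left without a class.

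**Figure D1:**
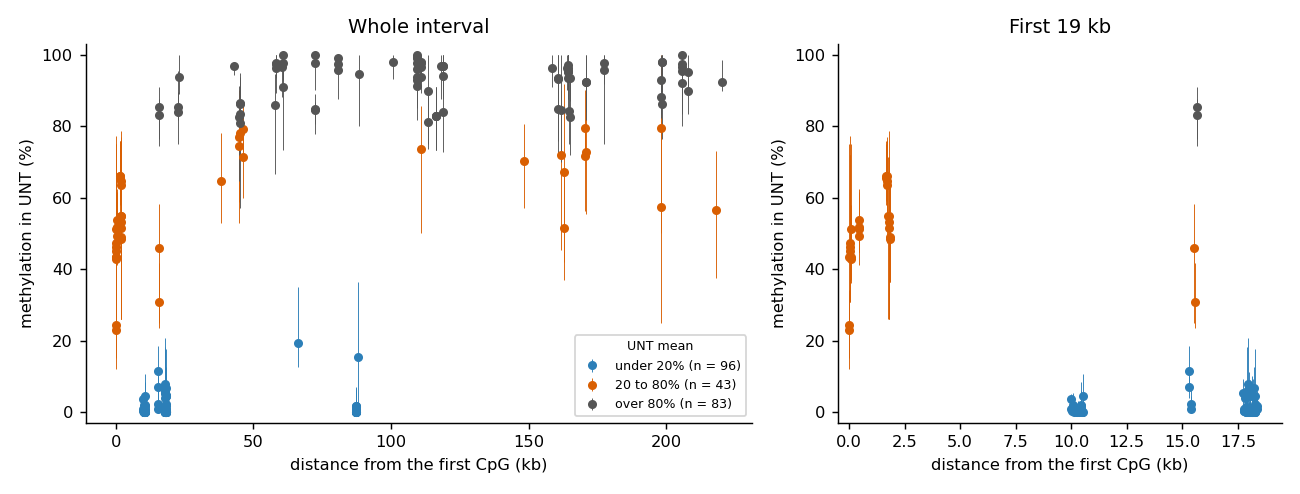
Mean methylation of each CpG in UNT striata (%, y axis) by its distance from the first CpG in kb (x axis), over the whole stretch and over its first part, with bars from the lowest to the highest of up to 6 striata. The 24 CpGs at the start are intermediate, 3 dense groups of CpGs lie near 0%, and most CpGs farther along are over 80%.

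The classes followed each other along the stretch. The first 1861 bases held 24 CpGs, all intermediate, with a median of 51.1% in UNT, and of 49.0% with L-DOPA and 45.3% with L-DOPA + R over the 23 CpGs kept in each. Then came unmethylated groups, and of the 118 CpGs after the second of them 81 were over 80%. After the last unmethylated group, 71 CpGs remained, with a median of 93.5% over the 69 kept in UNT, 92.0% over the 29 kept with L-DOPA and 92.7% over the 33 kept with L-DOPA + R.

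The intermediate CpGs at the start formed a pair of runs, a run being at least 5 consecutive CpGs from 20 to 80% with at most 500 bases between neighbours. Run A had 13 CpGs over 463 bases (chr14:107749411-107749873), with UNT means from 23.0 to 53.8% and a mean of 44.1%. Of its CpGs, 11 lay from 40 to 60%. The lowest was 107749426 with 23.0 ± 2.72% (SD, n = 3 rats) and the highest 107749841 with 53.8 ± 2.76%, while the first, 107749411, had 24.5 ± 2.18% and the last, 107749873, 51.1 ± 5.63%.

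Run B followed after 1209 bases and had 11 CpGs over 190 bases (chr14:107751082-107751271), with UNT means from 48.4 to 66.1% and a mean of 57.9%. Its first CpG, 107751082, had 65.4 ± 2.19% in UNT, its highest, 107751095, 66.1 ± 2.71%, and its last and lowest, 107751271, 48.4 ± 10.3%. Of these CpGs, 6 lay from 40 to 60%. The median SD of a CpG over the UNT striata was 7.75 points in run A and 12.1 points in run B, and the median binomial SD at these depths was 8.22 and 11.03 points. The CpGs of run B from 107751177 to 107751215 varied more than the number of reads gives, with an overdispersion from 2.59 to 3.03 between the sides in UNT and block means from 26.1 to 73.2% in the UNT striata.

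The start of the stretch cuts through run A. Followed past it, a choice made after the values were seen, the run began at 107748355 and had 47 CpGs over 1519 bases with a mean of 52.1%. Of the 6751 runs in the whole series, only 5 had at least that many CpGs, this one included, and the longest had 82. Within 5000 bases before the stretch, 36 of 42 CpGs were intermediate, with UNT means from 41.5 to 66.5% and a median of 55.2%, 1 was low, none was high and 5 had no class. Of the unclassed CpGs, which were passed over when the run was formed, 107749361 and 107749371 lie inside it but were not intermediate: their striata had from 84.6 to 100% in the 2 UNT striata with a value, 100% in 1 L-DOPA striatum and means of 97.5 and 94.8% in 4 and 5 L-DOPA + R striata. Of the 42 CpGs, 16 to 28 could be tested in each of the 12 comparisons made here by the chi-square test described below, 25 of them between L-DOPA + R and UNT, and none of those tested was a DMS. The smallest q was 0.0376, at 107748738 between L-DOPA + R and UNT on the control side. Relative to UNT, the tested CpGs of this part shifted by a median of -6.83 points (range -25.4 to 11.7) under L-DOPA + R. Under L-DOPA alone the median shift was -6.51 points (range -29.1 to 2.62). Set against L-DOPA, L-DOPA + R had a median shift of 1.90 points (range -10.6 to 10.7). Whether these CpGs shift as a set was not tested.

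The remaining 19 intermediate CpGs stood apart from the runs. Their UNT median was 71.8%, their range from 30.7 to 79.6%, and 4 of them lay from 40 to 60%. The members just inside and outside the class limits were 107815449 with 19.4% and 107749426 with 23.0%, and 107947527 with 79.6% and 107794693 with 80.9%.

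Of the 96 low CpGs, 90 lay in 3 dense groups without a CpG of another class. The first group (chr14:107759411-107759923) had 21 CpGs with a mean of 0.851 ± 0.144% in UNT (SD, n = 3 rats), 1.20 ± 0.468% with L-DOPA and 1.87 ± 0.722% with L-DOPA + R. The second group (chr14:107767149-107767752) had 57 CpGs with 1.16 ± 0.298%, 0.933 ± 0.461% and 1.27 ± 0.174% in the same order. The third group (chr14:107836564-107836717) had 12 CpGs with 0.596 ± 0.200%, 0.628 ± 0.610% and 0.352 ± 0.318%. Of the 96 low CpGs, 62 were kept with L-DOPA and 75 with L-DOPA + R, so that these means may not cover the same CpGs and striata. The lowest UNT mean was 0, shared by 45 CpGs, of which 107759515 was the first, and the highest mean of a low CpG was 19.4 ± 8.04% at 107815449. Among the high CpGs, means went from 80.9% at 107794693, with values in 4 UNT striata from 57.1 to 95%, up to 100%, shared by 4 CpGs, of which 107810152 was the first.

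The second unmethylated group could be placed on a gene. RefSeq lists the genes of this neighbourhood in the order B3gnt2, Commd1, Cct4 and Fam161a, with the transcribed pseudogene Zrsr2-ps1 inside Commd1 and no entry named Zrsr1. The spacing of the CG dinucleotides in the RefSeq promoter of Cct4 (GRCr8, plus strand, 300 bases around the start of the gene) was compared with the spacing of the covered CpGs, since the rn6 sequence was not used here. At chr14:107767142-107767441 of rn6, all 24 covered CpGs that were compared fell on CGs of this promoter. Among 1143 other promoters searched in the same way, the best had 5, and the promoters of Commd1, B3gnt2 and Fam161a had 2, 3 and 2 and could not be placed. Cct4 encodes a subunit of the chaperonin TRiC, and it was named after the values were seen.

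The Cct4 promoter is shown because it places an unmethylated group at a neighbouring gene. Capitals mark the 25 CGs that are CpGs of the stretch, of 33 CGs in these 300 bases.
Cct4: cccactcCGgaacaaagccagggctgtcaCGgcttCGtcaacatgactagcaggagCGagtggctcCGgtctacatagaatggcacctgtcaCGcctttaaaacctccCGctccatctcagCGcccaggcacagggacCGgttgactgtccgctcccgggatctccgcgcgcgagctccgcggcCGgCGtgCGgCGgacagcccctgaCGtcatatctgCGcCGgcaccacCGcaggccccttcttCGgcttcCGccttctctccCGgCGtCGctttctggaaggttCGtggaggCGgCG

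The highest mean of a CpG in this promoter was 7.92% in UNT, 7.57% with L-DOPA and 9.17% with L-DOPA + R, and the mean over the CpGs was 1.32, 1.46 and 1.46%. The sequence holds 7 copies of CCGG, which reads the same on both strands and is the site that MspI cuts. CCGG is present in 51.4% of the 33469 RefSeq promoters of the same length. Of the 228 CpGs, 118 lie after this group and 53 before it. In the RefSeq gene order, the CpGs after the Cct4 promoter lie past Commd1, so that the name Commd1 could apply only to the part before it. The study's own annotation places the DMS of this end of the chromosome in an intron of Commd1 and in the exon and promoter of Zrsr1. Which CpG lies in which of these features was not analysed here.

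To learn how the treatments bear on the intermediate CpGs, a logistic model on methylated and unmethylated reads was fitted to every CpG, with a correction for overdispersion and a chi-square test. DMS had a Benjamini-Hochberg q under 0.01 over all CpGs tested in the genome. Differences are in percentage points from the summed reads of the groups, the first group minus the second.

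In run B, the L-DOPA + R striata lay below the UNT striata at the first 5 CpGs. These CpGs, 107751082, 107751095, 107751102, 107751111 and 107751128, lie within 47 bases on the same forward reads and are called block B1. The number of reads at these CpGs differed by a median of 1 within a striatum, so that they count as 1 observation of the same molecules. The mean of block B1 in the control striata of the 3 UNT rats was 70.3, 65.2 and 73.0%, and in their lesioned striata 57.8, 63.6 and 60.6%.

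In L-DOPA rats, block B1 had 63.5, 70.2 and 61.8% in the control striata and 64.8, 50.8 and 63.8% in the lesioned striata. In L-DOPA + R rats, it had 36.1, 21.3 and 35.7% in the control striata and 49.2, 31.5 and 40.6% in the lesioned striata. Each of the 6 L-DOPA + R striata was lower than each UNT striatum and each L-DOPA striatum. Over rats, the means were 65.1 ± 1.49% in UNT, 62.5 ± 1.86% with L-DOPA and 35.7 ± 8.41% with L-DOPA + R (SD, n = 3 rats each), with 11 to 58 reads at a CpG of a striatum.

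**Figure D2:**
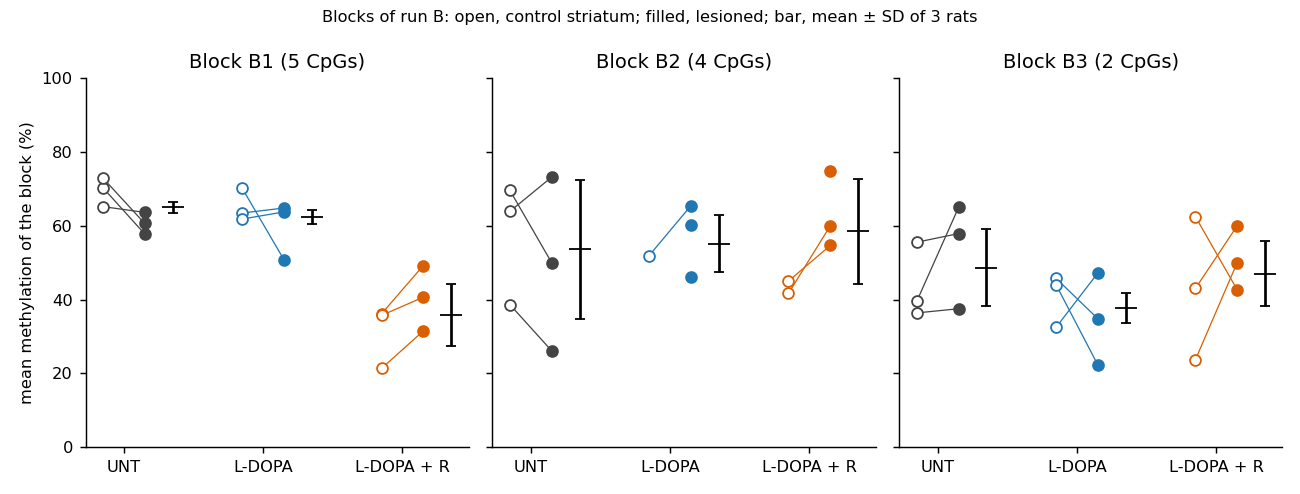
Mean methylation (%, y axis) of the 3 blocks of run B in each striatum by treatment (x axis), control striata as open and lesioned striata as filled points, the striata of a rat joined by a line, with the mean ± SD of 3 rats as bars. In block B1 the L-DOPA + R striata lie from 21.3 to 49.2%, below all UNT and L-DOPA striata, while in blocks B2 and B3 the treatments overlap.

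At the other CpGs of run B, the treatments lay closer together. Block B2, 4 CpGs on reverse reads (chr14:107751177-107751215), had 53.6 ± 18.9% in UNT, 55.1 ± 7.73% with L-DOPA and 58.6 ± 14.2% with L-DOPA + R (SD, n = 3 rats). Block B3, 2 CpGs on forward reads (chr14:107751250-107751271), had 48.6 ± 10.4%, 37.7 ± 4.01% and 46.97 ± 8.81% in the same order. The striata of the treatments overlapped in both blocks, and the CpGs of block B2 differed by 2.60 to 8.86 points between L-DOPA + R and UNT, with q from 0.858 to 1.00. In run A, the 4 CpGs of the last block (chr14:107749841-107749873) had 51.5 ± 4.05% in 3 UNT rats, and 39.4 ± 12.9% in the 2 L-DOPA + R rats with a value. Their differences between these groups were from -14.8 to -11.7 points, with q from 0.453 to 0.628.

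**Figure D3:**
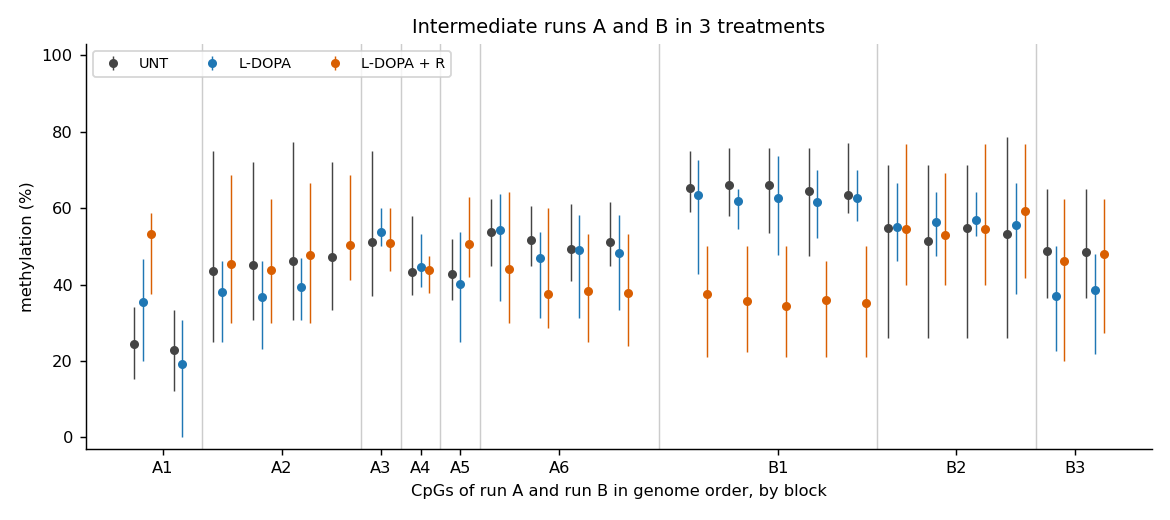
Methylation (%, y axis) of the CpGs of runs A and B in genome order (x axis), grouped in blocks of CpGs within 50 bases on shared strands, as means with bars from the lowest to the highest striatum, shown where at least 4 striata had a value. In block B1 the L-DOPA + R means lie from 34.5 to 37.4% and the means of both other treatments from 61.6 to 66.1%.

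Between L-DOPA + R and UNT, 7 of the 156 CpGs tested were DMS, of which 6 were lower and 1 was higher with L-DOPA + R, beside 0.445% of all CpGs tested. As this comparison was in view when the stretch was chosen, nothing is read from that count. The 5 CpGs of block B1 differed by -29.8 to -27.8 points, with q from 2.73e-05 to 5.18e-04. The other DMS were the first CpG, 107749411, with 27.0 points (q = 7.90e-04), and the last CpG, 107969730, with -27.9 points and the smallest q of the stretch (q = 1.00e-07). On the forward strand alone, 107969730 differed by -7.68 points and was not a DMS (q = 0.311). When the chi-square test was replaced by an F test, none of the 7 was a DMS, and q was from 0.0569 to 0.291. Without the second L-DOPA + R rat, 2 of 7 were left.

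Between L-DOPA and UNT, 1 of 141 CpGs was a DMS, beside 0.351% of all CpGs tested. It was 107969730 with -16.2 points (q = 9.00e-04). On the forward strand alone, the only strand with kept reads in UNT, the difference turned to 0.790 points and the CpG was not a DMS. With the rat as the unit its q was 0.0221 and with the F test 0.321, so that no DMS was left in either case. It also ceased to be a DMS without any one of 5 of the 6 rats. The CpGs of block B1 differed by -4.10 to -1.71 points between these groups, with q from 0.945 to 1.00. L-DOPA and L-DOPA + R were both compared with the same 6 UNT striata.

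L-DOPA + R and L-DOPA were compared without the UNT striata. The same L-DOPA + R values were in view when the stretch was chosen, so that nothing is read from the counts of this comparison either. Of 129 CpGs tested, 0 were DMS, beside 0.0477% of all CpGs tested, while 18 (13.95%) had an unadjusted p under 0.05 in the chi-square test, beside 7.09% of all CpGs tested, and 5 of the 18 are block B1. The smallest q was 0.0128, at 107751102 in block B1, with -27.3 points. The 5 CpGs of block B1 differed by -27.3 to -24.7 points, with q from 0.0128 to 0.0661. With the replicate number as a block, 1 of the 129 was a DMS.

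Block B1 was also compared on each side. The same L-DOPA + R values were in view when the stretch was chosen, so that nothing is read from the counts on either side. On the control side, 5 of 102 CpGs were DMS between L-DOPA + R and UNT, beside 0.306% of all CpGs tested, and these were the 5 CpGs of block B1, with -40.3 to -36.2 points and q from 1.68e-04 to 0.00572. With the F test 0 were DMS, with the replicate number as a block 3, and without the second L-DOPA + R control striatum 0. In the lesioned striata, 1 of 130 CpGs was a DMS, beside 0.287% of all CpGs tested, and this was 107969730 with -29.1 points (q = 4.46e-05). On the forward strand alone, or without cytosines 50 bases past another, 0 CpGs were DMS there. The block B1 CpGs differed there by -19.8 to -17.3 points, with q from 0.344 to 0.492. Whether the difference is larger on the control side was not tested.

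Between L-DOPA and UNT on the control side, 1 of 116 CpGs was a DMS, beside 0.255% of all CpGs tested, again 107969730, with -18.5 points (q = 0.00282), and on the forward strand alone or without cytosines 50 bases past another 0 were DMS. In the lesioned striata of these groups, 0 of the 105 tested CpGs were DMS, beside 0.237%, and 3 (2.86%) had an unadjusted p under 0.05, beside 7.04% of all CpGs tested. When L-DOPA + R was set against L-DOPA on each side, 0 of 90 CpGs were DMS on the control side, beside 0.0264%, and 0 of 99 on the lesioned side, beside 0.0284%, with 9 and 11 CpGs (10 and 11.1%) at an unadjusted p under 0.05 in the chi-square test, beside 6.69% of all CpGs tested on each side. The CpGs of block B1 differed between these groups by -36.9 to -30.7 points on the control side, with q from 0.0386 to 0.222, and by -19.9 to -17.7 points on the lesioned side, with q from 0.626 to 0.789.

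The first CpG of the stretch, 107749411, had 24.5 ± 2.18% in UNT, 35.5 ± 4.72% with L-DOPA and 53.2 ± 5.05% with L-DOPA + R (SD, n = 3 rats). The UNT striata ranged from 15.2 to 34.2%, the L-DOPA striata from 20 to 46.7% and the L-DOPA + R striata from 37.5 to 58.8%, so that with both strands merged L-DOPA + R did not overlap UNT. The strands behind these values differed. In UNT and L-DOPA, 4 striata each also had at least 10 reads on the reverse strand, with means of 23.5 and 21.9%, whereas in L-DOPA + R no striatum had.

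The forward strand alone had 27.2 ± 8.78% in UNT, 41.2 ± 13.7% with L-DOPA and 53.2 ± 8.32% with L-DOPA + R (SD over 6 striata each), a difference of 26.1 points between L-DOPA + R and UNT with q = 0.0142. On this strand, the UNT striata reached 38.1% and the L-DOPA + R striata began at 37.5%, so that the groups overlapped. The forward cytosine lies 50 bases past a called cytosine on its own strand, the length of a read. The next CpG, 107749426, went the other way, with 23.0% in UNT, 19.3% in 5 L-DOPA striata and 0% in the 2 L-DOPA + R striata with a value.

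The last CpG, 107969730, had 92.4 ± 2.23% in UNT, 75.7 ± 9.69% with L-DOPA and 66.1 ± 13.5% with L-DOPA + R (SD, n = 3 rats). The 6 UNT striata ranged from 89.8 to 98.4%, the L-DOPA striata from 61.5 to 92.6% and the L-DOPA + R striata from 51.1 to 96.6%, so that the groups overlapped. On the forward strand, the means were 92.4 ± 3.17, 93.0 ± 4.17 and 85.3 ± 8.26% (SD over 6 striata each).

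The reverse strand of 107969730, which lies 50 bases past a cytosine, had at least 10 reads in none of the UNT striata, in 5 L-DOPA striata with a mean of 8.67% and in 5 L-DOPA + R striata with a mean of 2.29%. It made up 20.05% of the reads kept with L-DOPA and 24.7% with L-DOPA + R. Without cytosines 50 bases past another, the difference was 0.790 points between L-DOPA and UNT and -7.68 points between L-DOPA + R and UNT (q = 0.283), and the CpG was not a DMS. Block B1 kept all 5 DMS between L-DOPA + R and UNT without these cytosines.

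**Figure D4:**
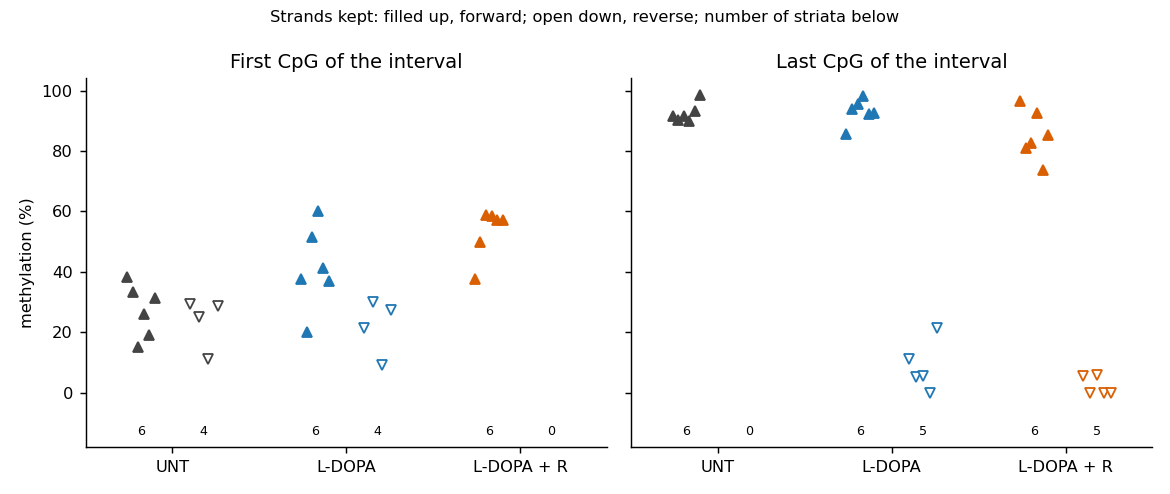
Methylation (%, y axis) of the first and the last CpG of the stretch in each striatum by treatment (x axis), with forward cytosines as filled and reverse cytosines as open triangles and the number of striata with at least 10 reads below. At the last CpG the forward strand lies from 73.6 to 98.4% in all 3 treatments and the reverse strand, absent in UNT, from 0 to 21.4%.

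The lesion was examined by comparing the striata of a rat. Between the lesioned and the control striata, 0 of 174 CpGs were DMS in UNT, beside 0.00193% of all CpGs tested, 0 of 98 in L-DOPA, beside 0.00101%, and 0 of 99 in L-DOPA + R, beside 0.00176%. In the chi-square test, 7, 3 and 2 of them (4.02, 3.06 and 2.02%) had an unadjusted p under 0.05, beside 6.45, 5.40 and 6.29% of all CpGs tested. The run means, taken over the CpGs with a value in all 18 striata, 3 in run A and 7 in run B, were tested over the 9 rats. The 7 CpGs of run B are the 5 of block B1 and the 2 of block B3, without block B2. In run A, the lesioned striata had 43.3% and the control striata 40.9%, a difference of 2.42 ± 9.26 points (SD, n = 9 rats, two-sided exact sign-flip permutation test, p = 0.457, adjusted p = 0.609).

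In run B, the lesioned and control striata had 51.6% each, with a difference of -0.0398 ± 7.76 points (SD, n = 9 rats, exact test, p = 0.984, adjusted p = 0.984). The p-values were adjusted over 4 tests of the runs. The 95% interval of the difference went from -4.70 to 9.54 points in run A and from -6.00 to 5.92 points in run B.

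**Figure D5:**
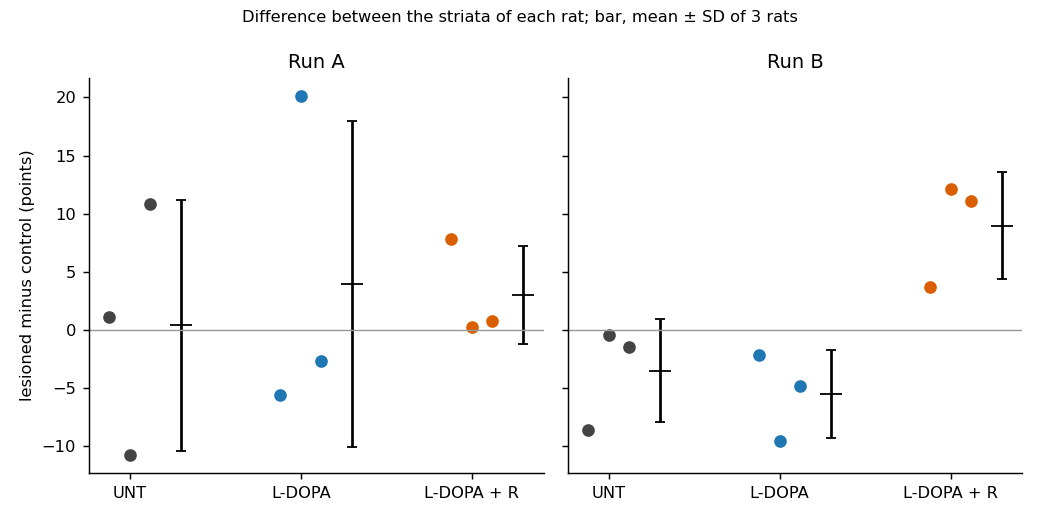
Run mean methylation of the lesioned minus the control striatum of each rat (percentage points, y axis) by treatment (x axis), with the mean ± SD of 3 rats as bars. In run B, the UNT and L-DOPA rats lie below 0 and the 3 L-DOPA + R rats above 0, while in run A the rats of UNT and L-DOPA lie on both sides of 0.

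The run means of the L-DOPA + R and L-DOPA rats are given as a description, since the same L-DOPA + R values were in view when the stretch was chosen and both means hold DMS of its comparison with UNT. Run A had 46.3, 49.0 and 52.2% in the 3 L-DOPA + R rats and 38.8, 39.3 and 42.1% in the 3 L-DOPA rats, with no overlap. The difference was 9.09 points, and the exact two-sided permutation test gave p = 0.10, the smallest that 3 rats against 3 allow, and an adjusted p of 0.20. This run mean rests on 3 CpGs. Of these, 107749411 had 35.5% with L-DOPA and 53.2% with L-DOPA + R, where only L-DOPA also had reverse reads, while 107749521 differed by 10.4 points and 107749491 by -0.737 points. Outside this mean, L-DOPA + R minus L-DOPA was 9.94 points in the block of 4 CpGs from 107749433 on, -2.23 points at 107749481 and -10.2 points in the last block of run A.

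Run B had 45.5, 33.6 and 37.8% in the L-DOPA + R rats and 57.3, 54.6 and 54.3% in the L-DOPA rats, again with no overlap. The difference was -16.5 points, with p = 0.10 and an adjusted p of 0.20 in the exact permutation test. The blocks of run B did not all go the same way. The mean of 3 rats differed by -26.7 points in block B1 and by 9.23 points in block B3. In block B2, which is not part of the run mean, it differed by 3.46 points, with values in 4 L-DOPA and 5 L-DOPA + R striata. Whether the blocks differ from each other was not tested. The UNT rats had 36.7, 36.3 and 37.7% in run A and 56.3, 62.2 and 62.7% in run B.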

How the data were processed

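RRBS of both striata of 9 rats was used. The authors trimmed the reads with Trim Galore 0.4.0, mapped them to rn6 with Bismark and deposited, for each cytosine of a CpG and strand, the coverage as a count of reads and the methylated and unmethylated percent, from 1 read on. Spike-in sequences were left out. Methylated reads were rebuilt from coverage and percent, a minimum of 10 reads per cytosine was set and the strands were merged.

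The computations were run with scipy 1.17.1, numpy 2.4.6 and pandas 2.3.3 under Python 3.11.15. The test follows methylKit: a logistic model per CpG, overdispersion from the Pearson residuals with a floor of 1, a chi-square test and Benjamini-Hochberg adjustment over all CpGs tested, present in at least 4 of 6 striata per group, or in all 6 striata of a comparison on one side or between sides. The method was tested on simulated binomial reads without extra spread between striata or pairing within a rat, so that this does not bear on either. With both sides together each striatum is a sample, although both come from 1 brain, so that p may be too small. That striata with the same replicate number come from the same rat was taken from the labels and the unilateral lesion. The deviations of these pairs from the group means correlated with a mean r of 0.0645 (0.0336 to 0.112) across CpGs, over 9 rats. Between treatments, the number joins different rats.

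The members and lists were chosen with earlier results of these data known. Named CpGs were the first, last, lowest and highest of each run, all DMS of the stretch, the extremes of the low and high classes and the members nearest the class limits. The interval of a run mean or difference is a t interval over rats. Alternatives were 20 reads, the F test, no overdispersion correction, leaving out cytosines 50 or 46 to 50 bases past another, each strand alone, each replicate left out, a replicate block, the rat as the unit, CpGs in all 12 striata, other class limits and gaps, and summed reads. Other imprinted genes were not analysed here, since no rn6 annotation was used.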

Additional observations from a re-analysis of the deposited data

Results flagged for a closer look

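In the run B mean, taken over 7 CpGs of which 5 are block B1, the lesioned striatum was lower than the control striatum in all 3 UNT rats, by a mean of -3.54 points, and in all 3 L-DOPA rats, by -5.54 points, and higher in all 3 L-DOPA + R rats, by 8.97 points. The difference in direction was not tested. Single rats were at -8.65, -0.461 and -1.52 points in UNT, at -2.16, -9.64 and -4.83 points in L-DOPA and at 3.71, 12.1 and 11.1 points in L-DOPA + R.

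Among 27 sets of 6 striata looked at for a striatum far from the others, chance gives about 1 in 20 if sets are independent. Here 5 sets held such a striatum. These were the run A mean of a control striatum of L-DOPA + R (42.4%), the run B mean of a lesioned striatum of UNT (52.0%), 107751082 in a lesioned striatum of L-DOPA (42.9%), 107751095 in the same striatum (54.5%) and 107751128 in a control striatum of UNT (77.1%). The last 3 are CpGs of block B1 on shared reads. Many of the 27 sets hold block B1, so that they are not independent and no excess is read from the 5.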

How the results depend on the processing

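The number of DMS in the stretch depended on the test. With the F test it was 0 between L-DOPA and UNT (8 CpGs with an unadjusted p under 0.05), between L-DOPA + R and UNT (19) and, on the control side, for both of these comparisons (3 and 9), as well as for L-DOPA + R and UNT on the lesioned side (5). Without overdispersion correction there were 3 DMS between L-DOPA + R and L-DOPA and 2 between L-DOPA + R and UNT on the lesioned side. With the rat as the unit there were 0 between L-DOPA and UNT (9 with an unadjusted p under 0.05) and 6 between L-DOPA + R and UNT. The replicate block gave 1 DMS between L-DOPA + R and L-DOPA and 3 between L-DOPA + R and UNT on the control side, and it left the counts of the other 10 comparisons as they were.

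With 20 reads per cytosine, 4 DMS were left between L-DOPA + R and UNT and 0 for L-DOPA and UNT, on the control side for both comparisons with UNT and on the lesioned side for L-DOPA + R and UNT, with 2 to 5 CpGs at an unadjusted p under 0.05. There were 33 high CpGs at this depth, the run A mean in UNT was 38.4% and the run B mean in L-DOPA was 50.1%. Without cytosines 46 to 50 bases past another, 4 DMS were left between L-DOPA + R and UNT, and the run A mean was 43.1% in UNT and 42.4% in L-DOPA. Summed reads gave a run A mean of 38.2% in UNT. Without cytosines at 50, or at 46 to 50 bases, and on the forward strand alone, the comparisons of L-DOPA and UNT, on both sides together and on the control side, and of L-DOPA + R and UNT on the lesioned side, had 0 DMS (4 to 13 with an unadjusted p under 0.05). The reverse strand alone, which does not hold block B1, gave 0 DMS in all 5 comparisons that had any (3 to 9 with an unadjusted p under 0.05). The difference of 107969730 between L-DOPA and UNT turned to 0.790 points with 20 reads, without cytosines at 50 or 46 to 50 bases and on the forward strand alone. Runs followed past the start of the stretch, chosen after seeing the data, had 58 CpGs in place of 24.

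Leaving out each replicate gave 0 to 1 DMS between L-DOPA and UNT, 2 to 7 between L-DOPA + R and UNT, 0 to 1 and 0 to 5 for the same comparisons on the control side, and 0 to 1 for L-DOPA + R and UNT on the lesioned side, where the call was lost without the second UNT striatum. On the control side, the call of L-DOPA and UNT was lost without the first L-DOPA striatum or any UNT striatum, and that of L-DOPA + R and UNT went to 0, 3 and 2 without the second L-DOPA + R, the second UNT and the third UNT striatum. The difference between sides in run B went from -1.56 to 1.16 points, and that in run A from 0.209 points without the second L-DOPA rat to 4.07 points without the second UNT rat. At 17 to 35.5 reads per CpG, differences of a few points in 1 striatum were not detectable.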
